A study of Mus musculus with 14 samples.

Results

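Tumours taken on day 3 of treatment with PLX4032 were compared with the control tumours of the same series, gene by gene and pathway by pathway. PLX4032 (vemurafenib) inhibits the BRAF kinase. The comparison used 6 of the 14 tumours measured: 2 treated and 4 controls. The melanoma cell line SMM102, which is of mouse origin, was injected at 2 places under the skin of each female C57BL/6J mouse (age 6 to 8 weeks), and all tumours came from these cells. Treatment began when tumours measured 150 to 300 mm3. Mice received the drug by intraperitoneal injection, 50 mg/kg a dose and 5 doses a week. The controls were taken on day 3 (n = 2) and on day 6 (n = 2). The sample labels name them untreated, whereas the design text of the series gives them the vehicle. As a second reference served the tumours on day 6 of PLX4032 (n = 2), grown from SMM102 cells in such mice and given the drug for longer, which share no sample with the controls. Columns of the expression table are tied to a group but not to a mouse, so tumour numbers below are only names. One animal number is carried by a day 6 control and by a day 3 treated tumour, and whether both came from 1 mouse is not stated. RNA came from whole frozen tumours, which hold the injected cells and the host's cells. P-values here describe only the spread over these 14 tumours.

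BRAF is a kinase that passes the signal of RAS to MEK and ERK. Active ERK moves to the nucleus, where it raises ETS and AP-1 transcription factors, cyclin D1, growth factor ligands and its own inhibitors of the Sprouty and dual specificity phosphatase families. ERK output and MYC also set the making of ribosomes, nucleotides and lipids, and melanoma cells under a BRAF inhibitor are known to stop dividing and to lower their biosynthesis within days.

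The deposited values are a signal on a per-million scale whose column totals ran from 879385 to 1084401, and read depth is unknown. Tests covered 15841 of the 18481 listed genes, those at 1 or higher in 2 or more of the 14 tumours. A change is the difference of log2(value + 1) between the treated mean and the mean of the control group means, from limma with its standard error (SE), and for genes with low values it lies nearer 0 than the log2 of the plain ratio. Genes with a Benjamini-Hochberg adjusted p under 0.05 are called and said to rise or fall. Where a change is given without its SE, the SEs of all genes named lay between 0.07 and 0.99, with a median of 0.19. Control values are given for day 3 tumour 1, day 3 tumour 2, day 6 tumour 1 and day 6 tumour 2, in that order.

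Between tumours of a group the log2 values correlated at 0.962 to 0.982. The treated pair correlated with the controls at 0.848 to 0.938. The 5 rows that carry ribosomal RNA-like sequence held 1.58% to 12.9% of a column's total, the highest share being that of control day 6 tumour 1. Braf itself, the drug's target gene, stood at 5.55, 5.68, 5.2 and 5.99 in the controls and 5.39 and 6.39 in the treated tumours and was not called (0.06, adjusted p = 0.74). The treated tumours overlapped with the controls. Xist, which is transcribed in cells of female hosts, stood at 19.4, 12.04, 24.7 and 7.98 in the controls and 51.3 and 78.5 in the treated tumours (2.03), above all controls in both treated tumours. Of 6 melanocyte markers 3 reached the level tested, with a summed signal of 3.29 to 5.33 in the controls and 7.88 and 11.8 in the treated tumours, and 2 rose, while Sox10 (0.32) did not pass. That number was 0 without treated tumour 2 and 1 without any of the other tumours but control day 6 tumour 2.

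Markers of most host cell types were higher in the treated tumours. Of 15 marker lists of host cells 12 had a summed signal above all controls in both treated tumours. The exceptions were red cells, with 0 of 5 markers called and sums of 79 to 618 in the controls and 358 and 1180 in the treated tumours, skin, whose 1 tested marker summed to 6.5 to 22.1 in the controls and 3.78 and 8.05 in the treated tumours, and mast cells, at 137 to 609 in the controls and 574 and 894 in the treated tumours. The summed signal of 10 macrophage and monocyte markers was 962 to 2900 in the controls and 10100 and 15500 in the treated tumours, and all 10 rose, with Adgre1 (3.90) and Ccr2 (3.32) highest. That of 7 endothelial markers was 47.5 to 111 in the controls and 137 and 203 in the treated tumours, and that of 7 fibroblast markers 2080 to 2590 in the controls and 3580 and 5480 in the treated tumours. The fibroblast marker Pdgfra (-0.85, a call lost without control day 3 tumour 2 or treated tumour 2, adjusted p = 0.059 and 0.18) and the pericyte marker Cspg4 (-2.05), which melanoma cells are also known to make, fell. Transcripts of the Y chromosome, which cells of the female hosts lack, summed to 30.7 to 44.7 in the controls and 20.3 and 22.8 in the treated tumours. Of these 3 transcripts Kdm5d (-0.61) and Uty (-0.46) did not pass and Ddx3y fell, standing at 18.9, 24.2, 17.4 and 25.04 in the controls and 10.9 and 11.4 in the treated tumours, a log2 change of -0.87 (SE 0.31, adjusted p = 0.04). The call was lost without either treated tumour (adjusted p = 0.15 without treated tumour 1 and 0.14 without treated tumour 2) and without control day 3 tumour 2 (0.097) or control day 6 tumour 2 (0.1). In whole tumours, fewer cells of a type and less RNA per cell cannot be told apart. The proliferation markers summed to 1480 to 1870 in the controls and 542 and 559 in the treated tumours, and all 15 fell, the mitotic genes Cdc20 (-2.44), Plk1 (-2.35), Ccnb1 (-2.35) and Aurka (-2.09) among them.

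The acute response reached a large share of the transcriptome. Of the genes tested, 7249 were called, or 45.8%. Of these, 3947 rose (24.9% of all genes) and 3302 fell (20.8%), and the median change over all genes was 0.02. Rises were larger than falls: 2118 genes rose and 708 fell by 1 log2 unit or more, and 855 rose and 72 fell by 2 units or more. In 58.9% of all genes the treated tumours did not overlap with the controls. Because so many genes were called, counts within a pathway are read below against these background shares. Without treated tumour 2 the number of called genes was 4345, of which 2351 rose, and quantile normalisation, which moved the median of all genes to -0.15, left 38.9% of the calls higher against 54.4%. Between day 3 and day 6 of PLX4032, 2892 genes were called (18.3%), of which 1162 were higher at day 3 (7.34%) and 1730 lower (10.9%). This comparison and that with the controls use the same 2 tumours of day 3, so their calls are not independent. Of the genes that rose against the controls 1022 were also higher than at day 6 of the drug, and of those that fell 1636 were lower. That comparison rests on 2 tumours a side: 1074 genes were called without treated tumour 2, 1456 without PLX4032 day 6 tumour 1, 1569 without PLX4032 day 6 tumour 2 and 1003 in a fit of those 4 tumours alone. Rescaling every column to the same sum left 30.0% of its calls higher at day 3, against 40.2%. In what follows a count against day 6 is given with these tumours left out wherever it moved by more than 1.5 times.

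**Figure D1:**
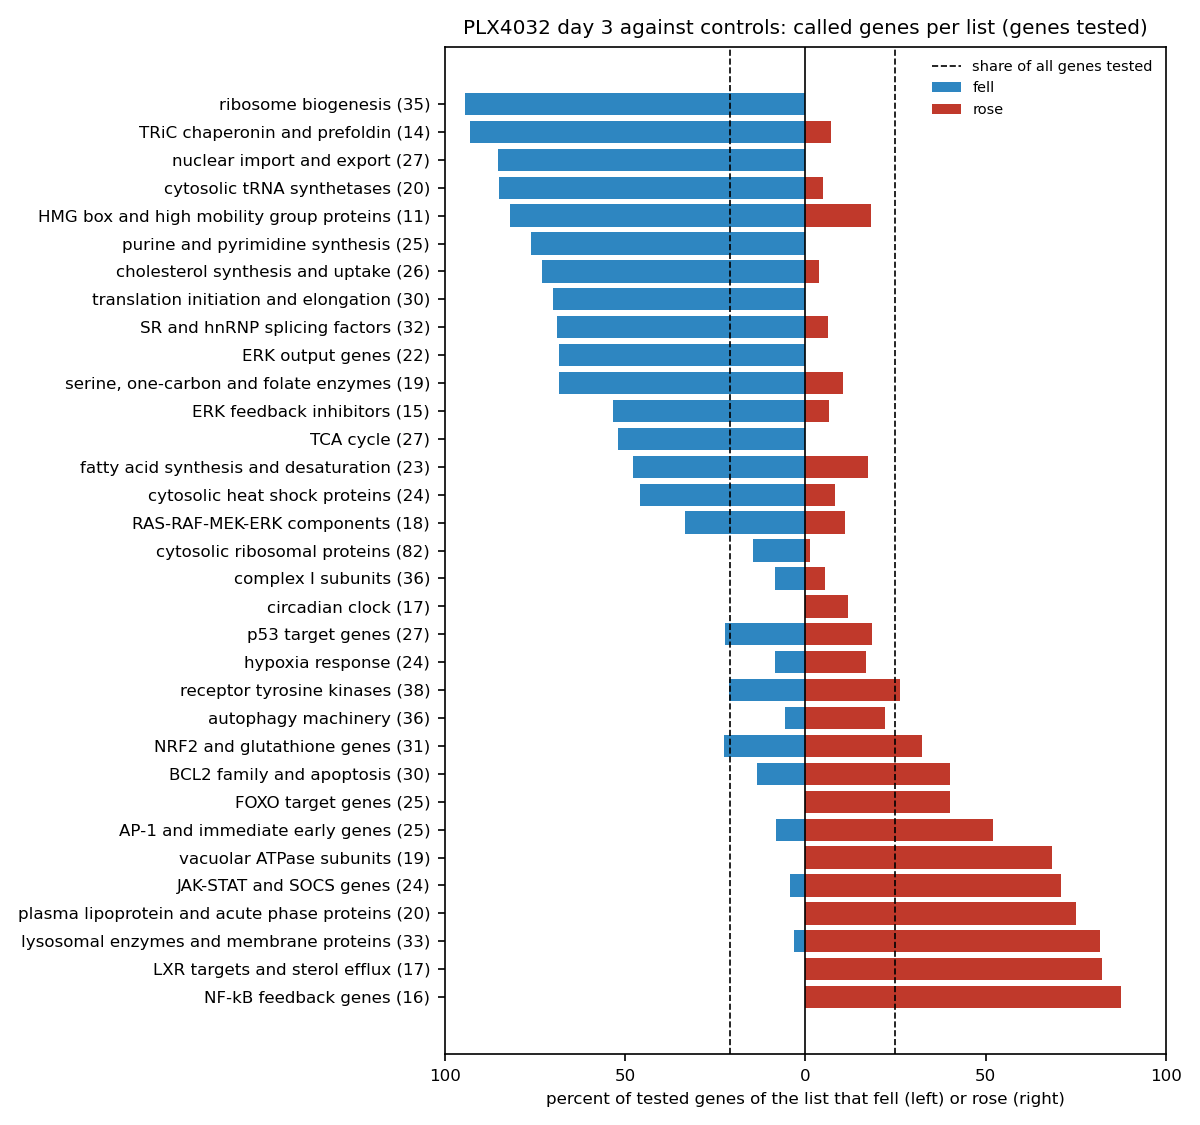
Share of each gene list that fell (left, blue) or rose (right, red) at day 3 of PLX4032 against the 4 controls, in percent of the genes tested on that list. Dashed lines mark the shares among all genes, 20.8% lower and 24.9% higher; the lists of ribosome biogenesis, tRNA synthetases and chaperonin subunits lie far past the left line, and those of acute phase proteins, NF-kB feedback and lysosomal proteins past the right one.

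Genes that ERK is known to switch on were lower at day 3. Of 22 tested, 15 fell (68.2%) and 0 rose, with a median change of -1.0. Hmga1 and Hmga2 encode chromatin proteins that bend AT-rich DNA. Hmga1 changed by -2.83, and Hmga2 stood at 312, 491, 257 and 341 in the controls and 59.8 and 52.9 in the treated tumours, a log2 change of -2.57 (SE 0.18, adjusted p = 7.6e-06). Both treated tumours lay below every control. The transcription factor gene Fosl1, the ERK-stabilised member of AP-1, stood at 95.9, 169, 102 and 132 in the controls and 20.8 and 37.5 in the treated tumours (-2.08). Epha2, a receptor tyrosine kinase gene, fell from 42.6 to 18.6 (-1.14) and Emp1, which encodes an epithelial membrane protein, from 619 to 289 (-1.10), and in both the treated tumours lay below all controls. Of the 22 genes, 7 were also lower at day 3 than at day 6 of the drug, among them Hmga2 (-1.67), Fosl1 (-1.46) and Myc (-0.73). The 7 became 4 without treated tumour 1 or without PLX4032 day 6 tumour 2, where Fosl1 (adjusted p = 0.069 and 0.055) and Myc (0.11 and 0.08) were among those lost, Myc also without PLX4032 day 6 tumour 1 (0.068). Myc, the transcription factor gene that drives growth, moved little, from 49.4 to 33.7 (-0.54), and that call was lost without treated tumour 1 (adjusted p = 0.17). The urokinase receptor gene Plaur (-0.91, adjusted p = 0.12), the protease gene Plau (-0.07) and Egr1 (-0.19), an early ERK target, did not pass. The number of the list that fell was 9 without treated tumour 1 and 8 against the day 6 controls alone. Etv4, an ETS factor gene, changed by -2.38 and the cyclin D1 gene Ccnd1 by -1.84. The cytokine gene Il11 (-2.72, a call lost without control day 3 tumour 2, control day 6 tumour 2, treated tumour 1 or treated tumour 2, adjusted p = 0.083 to 0.17) fell as well, and the protease gene Mmp3 (-0.75) did not pass.

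Of the ligands of the epidermal growth factor receptor, 4 fell. Areg (amphiregulin) stood at 7.84, 23.5, 2.29 and 7.08 in the controls and 0.489 and 1.28 in the treated tumours. Ereg (epiregulin) stood at 11.7, 41.1, 4.77 and 18.1 in the controls and 0.989 and 5.14 in the treated tumours. Btc (betacellulin) stood at 6.16, 15.4, 1.85 and 7.79 in the controls and 0.836 and 1.00 in the treated tumours. Control day 6 tumour 1 was the lowest control for each of them, and for Ereg it overlapped with the treated tumours. The changes were -2.24 for Areg, -2.15 for Ereg and -1.94 for Btc, and Hbegf, a further ligand, fell by 1.34. Without treated tumour 1 the calls of Areg (adjusted p = 0.064), Ereg (0.14) and Hbegf (0.18) were lost. The ligand genes Egf (0.17), Nrg4 (0.19) and Vegfa (-0.36) did not pass. The brain-derived neurotrophic factor gene Bdnf fell from 12.04 to 3.63 (-1.41). Igf1, which encodes insulin-like growth factor 1, rose from 5.86 to 37.8 (2.63). Of 36 ligand genes tested 10 fell (27.8%) and 7 rose (19.4%), among the latter Gas6 (1.87, a call lost without control day 3 tumour 2, control day 6 tumour 2, treated tumour 1 or treated tumour 2, adjusted p = 0.054 to 0.12), a ligand of AXL. Csf1, the macrophage growth factor gene, did not pass (0.35). Without treated tumour 2 the counts were 7 and 1, without treated tumour 1 6 and 4, and without control day 6 tumour 2 8 and 4.

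Inhibitors that ERK induces against itself fell in part. Of 15 feedback genes 8 fell, with a median of -0.55, and 0 were lower than at day 6 of the drug. Without treated tumour 1, 5 fell, and without control day 6 tumour 2, 5. Spry4, a Sprouty gene, changed by -0.87. Errfi1, an inhibitor of the epidermal growth factor receptor, fell from 286 to 143 (-0.99). The Sprouty-related genes Spred1 (-0.77) and Spred2 (-0.79), which block RAS activation, fell with it. Spry2, which encodes a Sprouty protein (-0.22), and Dusp5, a nuclear ERK phosphatase gene (-0.29), did not pass, nor did Dusp1 (1.05), which encodes a phosphatase of several MAP kinases. The 1 feedback gene that rose was Dusp2 (1.61, a call lost without treated tumour 2, adjusted p = 0.091), a phosphatase gene of lymphoid cells. Dusp6, the cytosolic ERK phosphatase, stood at 172, 158, 112 and 119.5 in the controls and 93.2 and 103 in the treated tumours (-0.49, adjusted p = 0.029). Its call was lost without treated tumour 1 (adjusted p = 0.16) or 2 (0.079), without control day 3 tumour 1 (0.063) and without control day 6 tumour 2 (0.065). Among the cascade's own 18 components 6 fell (33.3%) and 2 rose (11.1%), against 20.8% and 24.9% of all genes. Araf (0.18), Map2k1 (0.13), Map2k2 (-0.04) and Mapk3 (-0.11) did not pass. The RAS gene Hras (-0.58, a call lost without control day 3 tumour 2, control day 6 tumour 2 or treated tumour 1, adjusted p = 0.057 to 0.16) fell. Rasa1, which encodes a RAS GTPase activating protein, fell from 41.7 to 24.2 (-0.76), while the RAF scaffold gene Ksr1 rose from 4.39 to 12.2 (1.31) and the adaptor gene Grb2 from 63.2 to 131 (1.04). Without treated tumour 1, 2 components fell.

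**Figure D2:**
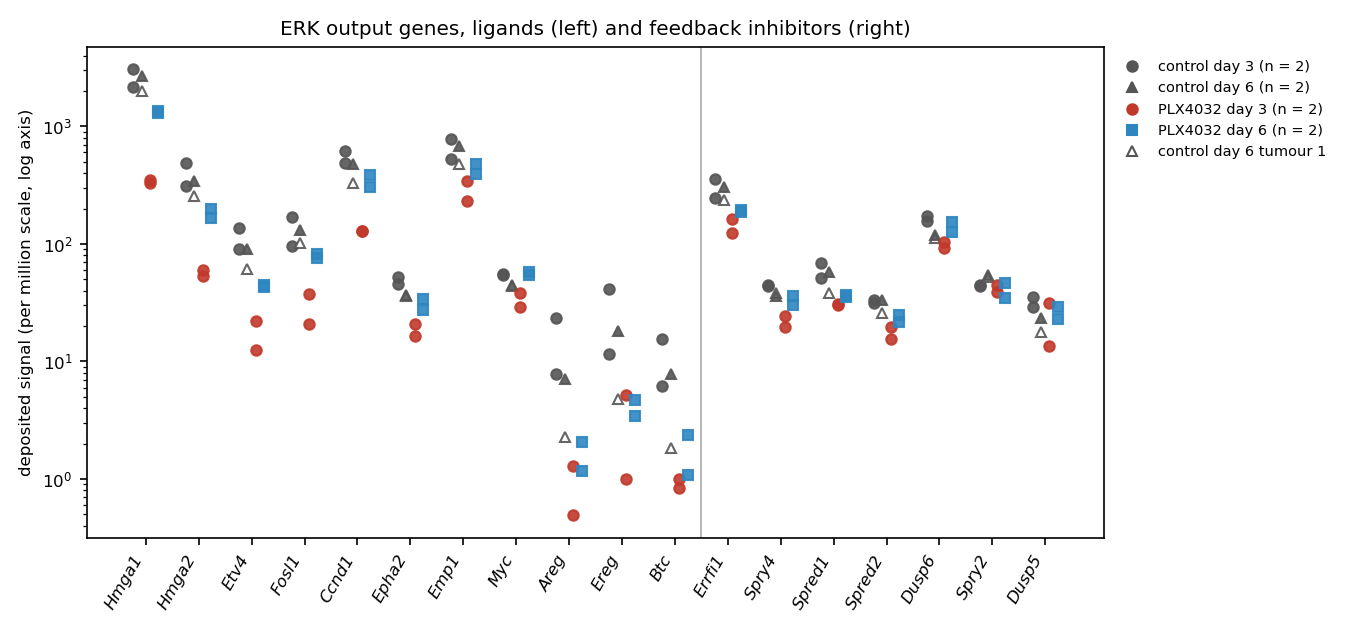
Deposited signal (log axis) of ERK output genes, ligands and feedback inhibitors in each tumour: controls of day 3 and day 6, PLX4032 day 3 and PLX4032 day 6, 2 tumours each. Points are single tumours; the red points of PLX4032 day 3 lie below the controls for Hmga1, Hmga2, Etv4, Fosl1, Ccnd1 and Emp1, and close to them for Spry2 and Dusp5.

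Other immediate early genes rose in part while Fosl1 fell. Of 25 genes of this class 13 rose, 2 fell and 10 were not called. The number that fell was 4 without control day 3 tumour 1, and 1 without treated tumour 1, control day 3 tumour 2 or control day 6 tumour 2. Btg2, an antiproliferative gene, stood at 6.98, 5.65, 9.12 and 3.58 in the controls and 27.2 and 53.03 in the treated tumours. The stress gene Gadd45b stood at 13.6, 15.1, 14.6 and 19.7 in the controls and 32.3 and 49.8 in the treated tumours. In both, treated tumour 2 was the higher one and neither treated tumour overlapped with the controls (2.47 and 1.31). Jund, a subunit of AP-1 tied to quiescence, rose from 36.2 to 72.8 (0.97), as did Nr4a3 (1.85), an orphan nuclear receptor gene. The stress factor gene Atf3 (3.20) and Fos (3.19), a partner of JUN, rose most. Fosl2 (0.26), Nr4a2 (-1.50) and Ier2 (0.05) did not pass. The list's mean lay 0.27 and 1.21 log2 units over the control mean in treated tumours 1 and 2, so the extent differed between the pair. Macrophage markers moved with these genes, at 2.56 and 3.03, and their part was not tested.

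The machinery that makes ribosomes fell almost as a whole. Of 35 ribosome biogenesis genes 33 fell (94.3%) and 0 rose, with a median of -0.82, and 30 of those that fell were also lower than at day 6 of the drug. Dkc1, the pseudouridine synthase of box H/ACA particles, stood at 74.4, 65.6, 61.4 and 55.1 in the controls and 23.8 and 17.9 in the treated tumours, a log2 change of -1.58 (SE 0.13, adjusted p = 1.7e-05). Nop56, a core protein of box C/D particles, stood at 224, 228, 216 and 186 in the controls and 75.9 and 94.4 in the treated tumours (-1.32). Npm1 (nucleophosmin), a nucleolar chaperone, stood at 1412, 1220, 1369 and 1242 in the controls and 735 and 668 in the treated tumours (-0.90). For each of the 3 the treated tumours were close to each other and well under the lowest control. Nop58, the partner of Nop56 (-1.23), Fbl, the methyltransferase fibrillarin (-0.92), Ncl, nucleolin (-0.95), and Polr1a, the largest subunit of RNA polymerase I (-0.94), fell with them. Heatr1 (-0.01) and Nolc1 (0.21) were the 2 members that did not pass. At day 6 of the drug Dkc1 stood at 67.9 and 65.6 and Npm1 at 1341 and 1286, within or near the range of the controls, and the difference from day 3 was -1.65 (SE 0.15, adjusted p = 6.8e-05) for Dkc1 and -0.91 (SE 0.16, adjusted p = 0.0036) for Npm1. In a family of rRNA processing and RNA exosome genes 26 of 36 fell, among them Wdr12 (-0.90) and Nop2 (-0.90), which act on the large subunit, while Rrp7a (-0.26) and Exosc10 (-0.16) did not pass.

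ETS factors, several of them ERK-controlled, are known to bind a short motif, and the promoters of the ribosome biogenesis genes were searched for its letters. The motif searched was CCGGAAGT on both strands of windows from 250 bases before to 50 after each RefSeq start site (build GRCm38.p6). It was in 33.3% of the 33 windows of the ribosome biogenesis list, against 3.89% of all 32851 windows. The canonical E-box CACGTG, which MYC and its partners bind, was in 24.2% of them against 7.15%. A match describes letters and is not a bound site. All windows include those of genes not tested here, and no comparison was made with the windows of tested genes alone. Of the 17 windows of the RAS-RAF-MEK-ERK components, 11.8% held the ETS motif. Other motifs were searched too, in the windows of each pathway list, and only a few pairs of motif and list are given. Promoters printed here are ones that hold a match. Whether ETS factors or MYC had a part in these falls was not tested. Grwd1, a histone-binding protein of ribosome assembly, fell from 39.98 to 16.4 (-1.23), and Gar1, which encodes a partner of Dkc1, from 93.6 to 47.7 (-0.96). Below are the 150 bases before their start sites, 5′ to 3′ on the gene's strand, with the ETS match, CCGGAAGT or its reverse complement, in capitals, at chr7:45830790-45830939 and chr3:129831397-129831546, both on the minus strand.
Grwd1: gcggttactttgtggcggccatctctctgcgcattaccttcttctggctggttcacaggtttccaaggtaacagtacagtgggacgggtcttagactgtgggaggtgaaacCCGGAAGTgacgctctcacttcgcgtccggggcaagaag
Gar1: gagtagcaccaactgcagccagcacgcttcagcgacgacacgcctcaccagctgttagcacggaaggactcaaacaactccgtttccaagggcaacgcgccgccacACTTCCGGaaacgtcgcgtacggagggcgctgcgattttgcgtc
The AP-1 element TGANTCA was in 5 of the 17 windows of the ERK output list (29.4%), against 7.81% of all windows. In the 14 windows of the ERK feedback list the AP-1 element had 0 matches, as did the ETS motif. Emp1, which fell by 1.10, carries 2 AP-1 elements in the 150 bases before its start site at chr6:135362781-135362930 on the plus strand, in capitals.
Emp1: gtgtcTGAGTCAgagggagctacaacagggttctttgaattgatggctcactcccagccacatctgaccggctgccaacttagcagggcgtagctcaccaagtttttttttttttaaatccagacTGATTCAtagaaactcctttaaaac

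Proteins that read and fold the message fell along with them. Of 30 genes of translation initiation and elongation 21 fell and 0 rose. Eif4e, the cap-binding protein that limits initiation, stood at 347, 382, 349 and 341 in the controls and 171 and 182 in the treated tumours, a log2 change of -1.001 (SE 0.09, adjusted p = 2.9e-05). Eef1e1, a scaffold of the tRNA synthetase complex (-1.06), and Pabpc4, a poly(A)-binding protein gene (-1.01), fell too. Eif5a, a factor that helps ribosomes past stalls, fell from 999 to 497 (-1.01) and the helicase gene Eif4a1 from 974 to 615 (-0.66). The elongation factor genes Eef1a1 (-0.18, adjusted p = 0.37) and Eef2 (-0.17, adjusted p = 0.25), did not pass. Of 20 cytosolic tRNA synthetase genes 17 fell and 1, Wars, rose (0.56). Wars, the tryptophan enzyme, is known to be induced by interferon, and its rise was lost without any 1 of the 6 tumours, with adjusted p from 0.058 to 0.2. The isoleucine and methionine enzymes fell most, Iars from 56.1 to 23.7 (-1.17) and Mars from 73.3 to 32.8 (-1.12), followed by Cars (-1.02) and Aars (-0.92), while Qars (-0.19) and Sars (-0.39) did not pass. All 17 that fell were also lower than at day 6 of the drug, a count that was 11 without treated tumour 1, 8 without treated tumour 2 and 7 without PLX4032 day 6 tumour 2.

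The chaperonin TRiC, a ring that folds actin and tubulin, fell through all of its measured subunits. Of 14 genes of TRiC and its partner prefoldin 13 fell, with a median of -0.62. Cct6a stood at 484, 454, 446 and 423 in the controls and 202 and 233 in the treated tumours (-1.05), the treated tumours lying far below the lowest control. Cct7 (-0.93), Cct3 (-0.84) and Cct8 (-0.80) were next. The prefoldin gene Pfdn5, whose product is also known to bind MYC, rose from 248 to 367 (0.57), and lost that call without treated tumour 2 (adjusted p = 0.076). Among heat shock genes 11 of 24 fell. The mitochondrial chaperonin gene Hspd1 stood at 328, 296, 275 and 272 in the controls and 115 and 116 in the treated tumours (-1.33), and the HSP90 gene Hsp90ab1 fell from 1467 to 893 (-0.72) with its co-chaperones Fkbp4 (-1.18) and Stip1 (-1.12). The inducible Hspa1a rose from a low level, from 0.947 to 6.72 (1.79), as did Hspb8 (1.63, a call lost without treated tumour 2, adjusted p = 0.052), a small heat shock protein gene. Hspa4l, an exchange factor gene, fell by 1.49, and the constitutive Hspa8 (0.03) and its partner Dnaja1 (-0.04) did not pass. Chaperones of the endoplasmic reticulum were called at shares near those of all genes. Of 24 genes 5 fell and 5 rose (20.8% each), with a median of 0.01. Canx (calnexin) fell by 0.61 while the secretory stress factor Xbp1 rose by 0.82, with Sdf2l1 (1.11) and Herpud1 (0.82), which serve folding and disposal. Hspa5 (-0.09), the chaperone BiP, and Calr, calreticulin (0.02), did not pass. Without treated tumour 2, 2 fell and 3 rose.

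Ribosomal protein and respiratory chain genes showed few calls. In 56 of 82 cytosolic ribosomal protein genes both treated tumours lay below all controls, and in 2 above them. Of all genes, 58.9% did not overlap in either direction. Of these 82 ribosomal protein genes 12 fell (14.6%), a share below that of all genes, with a median of -0.17. This number depended on the scaling and on single tumours: 32 fell after quantile normalisation and 28 with median-of-ratios scaling, against 5 without treated tumour 2 and 5 without treated tumour 1. Rpl27 (-0.81), Rps2 (-0.75, a call lost without treated tumour 2, adjusted p = 0.071), Rps27l (-0.69) and Rpl5 (-0.59) were the lowest without overlap, and the abundant Rplp1 (-0.16) and Rpl13a (-0.06) did not pass, the latter being 0.24 (adjusted p = 0.048) after quantile normalisation. Of 36 subunit genes of respiratory complex I 3 fell and 2 rose. Ndufa12 fell by 0.59, and the abundant Ndufa7 (-0.13) and Ndufa2 (-0.10) did not pass. Of the others named by rule, Ndufs6 (0.49, a call lost without control day 3 tumour 2, control day 6 tumour 2, treated tumour 1 or treated tumour 2, adjusted p = 0.061 to 0.18) and Ndufa1 (0.34, a call lost without control day 3 tumour 1, control day 3 tumour 2, control day 6 tumour 1, treated tumour 1 or treated tumour 2, adjusted p = 0.055 to 0.25) rose and Ndufv1 (-0.41, a call lost without treated tumour 2, adjusted p = 0.051) fell. Of 16 genes of ATP synthase 3 fell, Atp5b (-0.56), Atp5g1 (-0.46, a call lost without any 1 of the 6 tumours, adjusted p = 0.057 to 0.22) and Atp5a1 (-0.42, a call lost without treated tumour 2, adjusted p = 0.11), and Atp5k (0.00) and Atp5g3 (-0.29) did not pass. Mitochondrial ribosomal protein genes fell in 29 of 78 cases, and in 13 without treated tumour 2, 14 without treated tumour 1, 18 without control day 3 tumour 2 and 17 without control day 6 tumour 2. Mrps6 (-1.41), Mrps22 (-0.91), Mrpl12 (-0.75) and Mrps27 (-0.73) fell most, and Mrpl52 (-0.24) and Mrps21 (0.02) did not pass. Enzymes of the tricarboxylic acid cycle and its entry fell in 14 of 27 cases, with Idh3a (-0.79) and Suclg2 (-0.73) the lowest, before Dlat (-0.65) and Mdh2 (-0.55). Idh3g (-0.17) and the 4 subunits of succinate dehydrogenase, Sdha (-0.16), Sdhb (0.23), Sdhc (0.13) and Sdhd (0.02), did not pass.

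Enzymes that supply nucleotides fell at most steps of both routes. Of 25 purine and pyrimidine genes 19 fell (76%) and 0 rose. Cad, the enzyme that starts pyrimidine synthesis, stood at 48.4, 44.8, 41.9 and 42.1 in the controls and 18.2 and 16.5 in the treated tumours, a log2 change of -1.30 (SE 0.11, adjusted p = 2.1e-05). Ppat, which commits to purine synthesis, fell from 19.8 to 8.88 (-1.07), Atic, which ends it, from 90.6 to 43.3 (-1.05) and Impdh2, which leads to GTP, from 224 to 111 (-1.01). Prps1, which makes the ribose donor, fell by 1.05, as did the uridine phosphorylase gene Upp1 (-1.30, a call lost without control day 3 tumour 2, control day 6 tumour 2 or treated tumour 1, adjusted p = 0.053 to 0.15). The salvage gene Hprt (0.14), Ctps2 (-0.13) and the kinase gene Uck1 (0.01) did not pass. Of the 19 that fell, 16 were lower than at day 6 of the drug.

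The route from serine to one-carbon units fell from its first enzyme onward. Of 19 genes 13 fell and 2 rose, with a median of -0.95. Phgdh, the first enzyme of serine synthesis, stood at 157, 174, 174 and 163 in the controls and 66.2 and 49.2 in the treated tumours (-1.53). Psat1, the second, stood at 123, 208, 65.3 and 142 in the controls and 26.6 and 23.6 in the treated tumours (-2.27). The treated tumours lay below all controls for both. Shmt2, which hands the carbon of serine to folate in mitochondria, fell from 138 to 41.5 (-1.68) and Mthfd1l, a later step there, from 45.8 to 11.6 (-1.87). Ahcy, of the methylation cycle, fell by 1.62. Mtr (0.15) and Amt (0.03) did not pass.

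Genes of amino acid supply fell in part. Of 24 genes of the ATF4 response 7 fell, a share near that of all genes, and 11 did so without control day 6 tumour 1 and 12 without control day 3 tumour 1. Asns (asparagine synthetase) stood at 35.8, 61.97, 21.8 and 42.4 in the controls and 10.04 and 9.26 in the treated tumours (-1.87). Slc7a5, the large neutral amino acid carrier, fell from 45.9 to 14.95 (-1.54). Slc1a4, a carrier of small neutral amino acids (-1.10), and Slc7a1 (-0.92, a call lost without treated tumour 1, adjusted p = 0.068), a carrier of basic ones, fell as well. Slc3a2, the partner chain of Slc7a5 (0.10), Nupr1 (0.09) and Atf4 itself (-0.54, adjusted p = 0.075) did not pass. Polyamine genes, chosen after their values were seen, changed at opposing steps. Odc1, the rate-limiting enzyme of polyamine synthesis, stood at 264, 529, 255 and 318 in the controls and 119 and 138 in the treated tumours, a log2 change of -1.35 (SE 0.24, adjusted p = 0.0012). The next enzymes of that route, Srm (-0.85) and Sms (-0.80), fell with it, while Sat1, which breaks polyamines down, rose from 199.7 to 495 (1.30). Each of the 3 synthesis genes was lower, and Sat1 higher, than at day 6 of the drug (-1.27, -1.19, -0.69 and 0.94). Of these 4, the call of Srm was kept without any 1 of the 4 treated tumours. That of Sms was lost without each of them (adjusted p = 0.063 to 0.16), that of Odc1 without treated tumour 1 (0.055) or PLX4032 day 6 tumour 2 (0.066), and that of Sat1 without treated tumour 2 (0.17) or PLX4032 day 6 tumour 1 (0.17).

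Traffic through the nuclear pore and the splicing machinery followed the biosynthetic genes. Of 27 transport receptor genes 23 fell and 0 rose. Kpna2, an importin of cycling cells, fell from 195 to 68.2 (-1.50), the GTPase gene Ran from 414 to 214 (-0.94) and the export receptor gene Xpo1 from 76.2 to 45.97 (-0.71). The partners of Ran fell with it, Rcc1 (-1.38), Ranbp1 (-1.10) and Rangap1 (-1.04), and Xpo6 (-0.03) and Kpna4 (-0.11) did not pass. Nucleoporin genes fell in 15 of 22 cases, with Nup37 (-1.44), Nup107 (-1.35) and Nup43 (-1.31), scaffold subunits, the lowest. Nup210, which is known from muscle and T cells, rose from 2.56 to 23.96 (2.90), and Nup153 (-0.21) and Nup214 (0.02) did not pass. Of 32 splicing factor genes 22 fell, with small changes, among them Hnrnpab (-0.88), Hnrnpr (-0.69), Hnrnpd (-0.69), Ptbp1 (-0.67) and Srsf3 (-0.57). Mbnl1, a splicing regulator of differentiated cells, rose from 65.4 to 101 (0.63), and Srsf5 (0.20) and Srsf11 (0.01) did not pass. Proteasome subunit genes fell in 22 of 46 cases and in 8 without treated tumour 1. The 5 that rose included the interferon-induced Psmb9 (2.44), Psmb8 (2.03), Psmb10 (1.68) and Psme1 (1.46), and Psmb6 (-0.17) and Psmb4 (-0.05), catalytic or structural subunits of the constitutive particle, did not pass.

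The marker values of cell content moved with these falling lists. Proliferation markers lay -1.79 and -1.78 log2 units from the control mean in the treated tumours, and the Y-linked transcripts at -0.54 and -0.75. At day 6 of PLX4032 the ribosome biogenesis list stood at -0.01 and 0.10, proliferation markers at -0.05 and 0.00 and the Y-linked transcripts at -0.49 and -1.15. The Y-linked values rest on 3 transcripts of low signal and on 2 tumours a group. Ddx3y, the Y-linked transcript with the largest fall, changed by -0.87. Of the 33 ribosome biogenesis genes that fell, 14 fell by more than Ddx3y did. That number was 10 of 13 for serine and one-carbon genes and 9 of 19 for nucleotide synthesis. It was 7 of 17 for tRNA synthetases, 8 of 23 for nuclear transport and 5 of 21 for translation genes. For TRiC and prefoldin it was 2 of 13, and for splicing factors 1 of 22. These counts compare estimates without their SEs, and none was made with Kdm5d or Uty. The part of the changed cell content in each list was not tested.

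**Figure D3:**
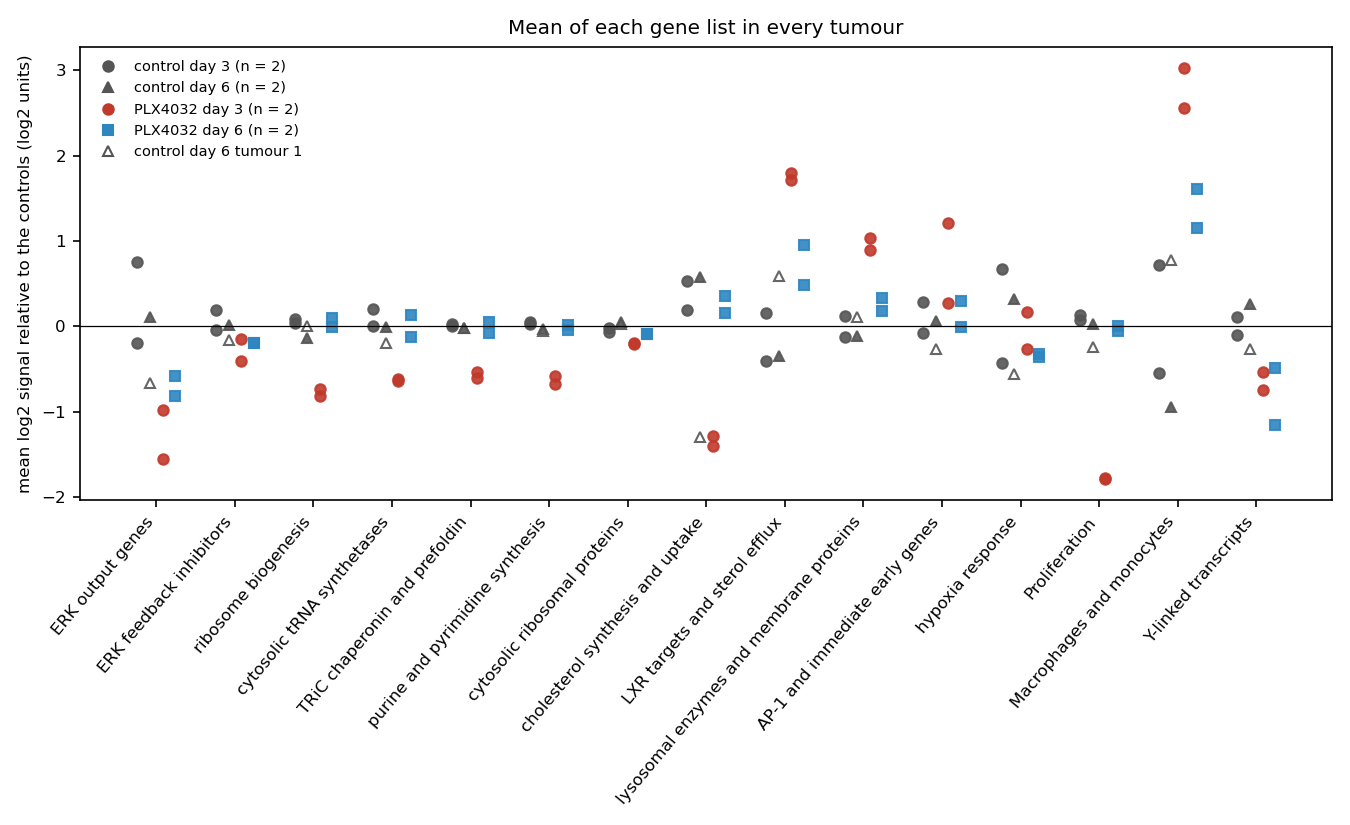
Mean log2 signal of each gene list relative to the mean of the 4 controls, in log2 units, for every tumour of 4 groups. Each point is 1 tumour; growth lists lie below 0 at day 3 of PLX4032 and near 0 at day 6, and the cholesterol list of control day 6 tumour 1 lies at -1.30 beside the treated tumours.

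Sterol synthesis was low at day 3 and also in 1 control. Of 26 genes of cholesterol synthesis and uptake 19 fell. Sqle, squalene epoxidase, stood at 52.6, 72.7, 10.8 and 73.2 in the controls and 8.45 and 6.3 in the treated tumours (-2.38). Idi1, an isoprenoid enzyme gene, stood at 50.1, 74.3, 6.22 and 81.4 in the controls and 6.28 and 4.66 in the treated tumours (-2.60). In both, control day 6 tumour 1 was the lowest control, and for Idi1 it overlapped with the treated tumours. The list's mean relative to the control mean was -1.30 in that control, -1.28 and -1.40 in the treated tumours and between 0.19 and 0.58 in the other controls. Hence the count varied with the tumours used. Without control day 6 tumour 1 it was 23, and it was 12 when control day 3 tumour 2 was left out. Leaving out treated tumour 1 gave 12, leaving out treated tumour 2 gave 5, and against the day 6 controls alone 5 fell. In the comparison with day 6 of the drug that control enters only through the spread shared by all tumours. There 17 of the 26 genes were lower at day 3, with differences of -2.66 for Sqle and -2.92 for Idi1. That count was 7 without treated tumour 1, 0 without treated tumour 2, 3 without PLX4032 day 6 tumour 1 and 4 without PLX4032 day 6 tumour 2. The call was lost for Sqle without treated tumour 2 (adjusted p = 0.093) or PLX4032 day 6 tumour 1 (0.077) and for Idi1 without any 1 of the 4 (0.076 to 0.15). The regulator genes Srebf2, the sterol-sensing transcription factor, and Insig1, its anchor, changed by -1.02 and -1.54. Of the genes named here, calls were lost without treated tumour 2 for Idi1 (adjusted p = 0.081), Srebf2 (0.13) and Insig1 (0.17), and for Insig1 also without treated tumour 1 (0.14) or control day 3 tumour 2 (0.11). The later enzymes Cyp51 (-2.14, a call lost without treated tumour 2, adjusted p = 0.063) and Msmo1 (-1.94, a call lost without treated tumour 1 or treated tumour 2, adjusted p = 0.076 and 0.078) fell. Ebp, an isomerase of the route, rose by 0.52, and Pmvk (-0.63) and Mvd (-0.36) did not pass.

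Fatty acid enzymes changed in both directions. Of 23 genes 11 fell and 4 rose, and without treated tumour 2 5 fell and 2 rose. Fasn (fatty acid synthase) stood at 128, 135, 81.9 and 121 in the controls and 50.6 and 43.8 in the treated tumours (-1.27). Elovl6, an elongase gene, stood at 18.8, 25.1, 8.48 and 24.5 in the controls and 5.54 and 3.34 in the treated tumours (-1.82). Scd1, the delta-9 desaturase, stood at 53.8, 95.3, 32.5 and 108 in the controls and 19.8 and 13.1 in the treated tumours (-1.95). All treated values lay under all controls. Dgat1, which makes storage triglyceride, rose from 27.1 to 53.7 (0.90), as did Dgat2 (1.63). The desaturase gene Fads2 (-2.02, a call lost without treated tumour 2, adjusted p = 0.055) fell, and Elovl5 (0.04) and Acsl5 (0.31) did not pass.

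Genes of sterol efflux rose. Of 17 liver X receptor targets and sterol transport genes 14 rose and 0 fell, and 9 rose without treated tumour 2. Abca1, the cholesterol exporter, stood at 10.8, 5.68, 30.97 and 9.05 in the controls and 45.4 and 49.3 in the treated tumours, a log2 change of 1.94 (SE 0.42, adjusted p = 0.0039). Its partner Abcg1 stood at 11.8, 3.31, 15.1 and 3.22 in the controls and 81.3 and 67.9 in the treated tumours (3.27). In both, the treated tumours lay above all controls. The receptor gene Nr1h3 rose from 5.51 to 43.7 (2.88), the lipoprotein lipase gene Lpl from 3.05 to 51.2 (3.83) and the phospholipid transfer protein gene Pltp from 31.1 to 387 (4.11). Mylip, a ubiquitin ligase gene, stood at 19.9, 12.2, 29.2 and 23.6 in the controls and 45.6 and 40.00 in the treated tumours (1.04), and Scarb1 (-0.07) and Soat1 (0.51) did not pass. In controls the list's mean ran from -0.41 in day 3 tumour 2 to 0.59 in day 6 tumour 1, the control with the lowest cholesterol list, and it stood at 1.71 and 1.80 in the treated tumours. Macrophage markers ran alongside (-0.55 and 0.78 in those controls), and their part was not tested.

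**Figure D4:**
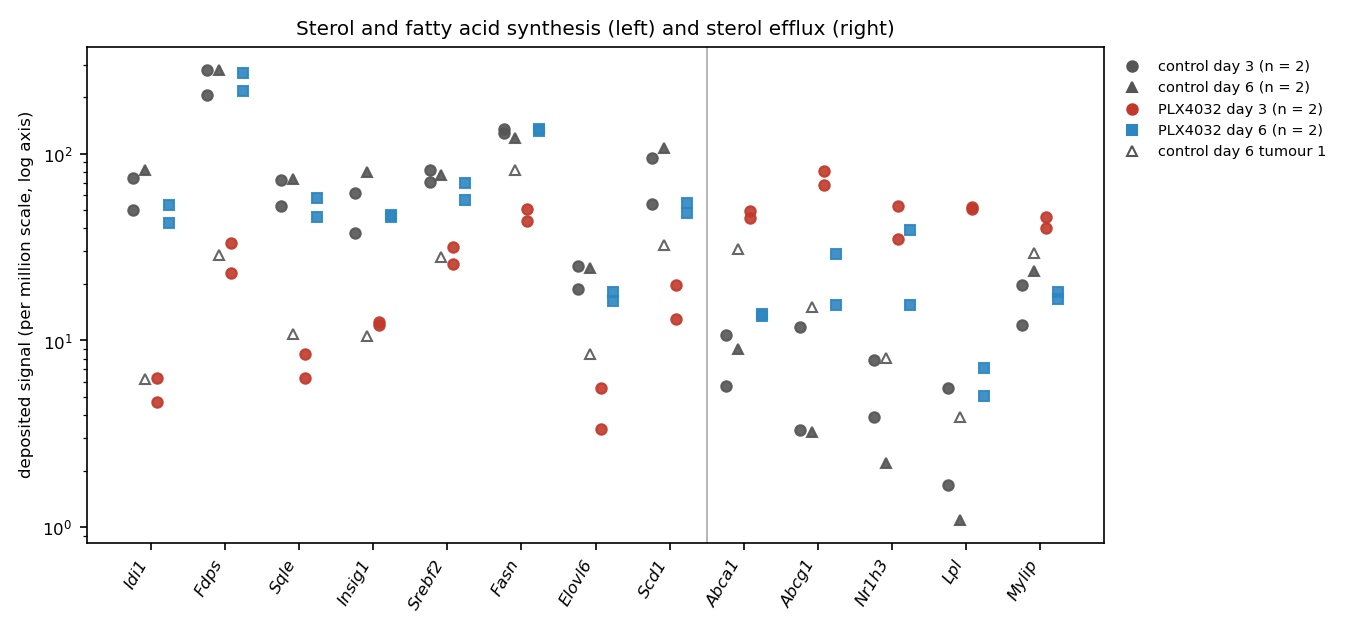
Deposited signal (log axis) of sterol and fatty acid genes and of sterol efflux genes in each tumour of 4 groups. Points are single tumours; control day 6 tumour 1, drawn as an open point, lies at or near the PLX4032 day 3 tumours for Idi1 and Fdps and above the other controls for Abca1 and Abcg1.

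Lysosomal genes rose across enzymes, membrane proteins and the proton pump. Of 33 lysosomal genes 27 rose (81.8%) and 1 fell, with a median of 0.93, and 17 of those that rose were also higher than at day 6 of the drug. In all, 18 of the list were higher than at day 6, and 7 without treated tumour 2, 9 without PLX4032 day 6 tumour 1 and 11 without PLX4032 day 6 tumour 2. Psap (prosaposin), which activates lipid hydrolases, stood at 995, 688, 934 and 716 in the controls and 2830 and 3197 in the treated tumours, a log2 change of 1.87 (SE 0.20, adjusted p = 9.8e-05). Ctsd (cathepsin D), an aspartic protease, stood at 424, 362, 471 and 403 in the controls and 1183 and 1235 in the treated tumours (1.55). Lamp1, a main membrane glycoprotein, stood at 374, 355, 387 and 382 in the controls and 573 and 695 in the treated tumours (0.75). The treated tumours lay over all controls for each. The 1 that fell was Ctsl, the cysteine protease cathepsin L, which stood at 2049, 3335, 1604 and 2664 in the controls and 915 and 1086 in the treated tumours (-1.22). Ctsh (2.60) and Ctsf (1.77), cathepsins, and Man2b1 (1.81), a mannosidase, rose without overlap as well. Asah1 (0.00), Tpp1 (0.44) and Scarb2 (0.26) did not pass. Of 19 proton pump subunits 13 rose and 0 fell, among them Atp6v0c from 328 to 617 (0.91) and Atp6v1b2 from 43.2 to 88.1 (1.01), and 8 rose without treated tumour 2. Atp6v0d2, a subunit known from macrophages and osteoclasts, rose by 1.80 and Atp6v0a1 by 1.07, and Atp6v1g1 (0.14) and Atp6ap2 (0.33) did not pass. Tfeb, the transcription factor that drives lysosome genes, stood at 5.79, 2.93, 9.87 and 4.71 in the controls and 21.7 and 22.6 in the treated tumours, a log2 change of 1.86 (SE 0.28, adjusted p = 0.00062). Macrophages are rich in lysosomes, their markers rose with these genes, and their part was not tested.

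Autophagy genes showed fewer calls. Of 36 genes 8 rose (22.2%), near the share of all genes, and 5 without treated tumour 2. Gabarap rose from 289 to 476 (0.72) and Map1lc3b from 106 to 151 (0.50), which encode membrane tags of the autophagosome. Optn, a cargo receptor gene, rose by 0.89 and Atg9b fell by 3.20. Nbr1 (-0.03), Sqstm1, the cargo receptor p62 (0.15), and Ulk1, the starting kinase (0.24), did not pass. In promoters, the CLEAR element TCACGTGA, which TFEB binds and which holds an E-box, was in 5 of the 28 windows of the lysosomal list (17.9%), against 0.974% of all windows. The 150 bases before the start of Ctsd, at chr7:142387828-142387977 on the minus strand, hold 1 match, in capitals.
Ctsd: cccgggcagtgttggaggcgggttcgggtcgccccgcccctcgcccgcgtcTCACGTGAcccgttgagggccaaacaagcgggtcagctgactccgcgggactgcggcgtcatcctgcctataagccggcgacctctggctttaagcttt

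FOXO targets, genes that AKT signalling holds down, rose in part. Of 25 tested 10 rose and 0 fell, and 9 were higher than at day 6 of the drug, or 2 without treated tumour 2 or without PLX4032 day 6 tumour 2. Txnip, which blocks glucose uptake, stood at 57.8, 23.2, 111 and 35.2 in the controls and 243 and 215 in the treated tumours (2.22), and the stress gene Sesn1 rose from 16.9 to 38.2 (1.21). Klf6 (0.98) and the mitochondrial dismutase gene Sod2 (0.99, a call lost without treated tumour 2, adjusted p = 0.066) rose too. Bnip3 (-0.53) and Gabarapl1 (0.24) were not called, and neither were the insulin receptor gene Insr (-0.27) and its adaptor Irs2 (-0.06). Against the day 6 controls alone 6 FOXO targets rose. Leukocyte markers rose beside these genes, and their part was not tested, nor was AKT signalling. In the list of CDK inhibitors and G1 cyclins 8 of 20 fell and 5 rose, the latter 2 without treated tumour 2, 3 without treated tumour 1 and 3 without control day 3 tumour 2. Cdkn1c, the inhibitor p57, rose from 0.819 to 6.09 (2.05) and Rb1, the retinoblastoma gene, from 9.25 to 17.1 (0.80), while Cdkn1a, the inhibitor p21, was not called (-0.03). Ccne2, a cyclin of S phase entry, fell by 1.64, Cdk4, the kinase partner of cyclin D, fell from 522 to 249 (-1.07), and Cdkn2c (-0.20) did not pass. In that list 40% fell and 25% rose, against 20.8% and 24.9% of all genes. MYC's antagonist Mxd4 rose from 32.4 to 59.9 (0.89). Of 27 p53 targets 5 rose (18.5%), with the death receptor gene Fas at 1.98, and 6 fell (22.2%), with Zmat3 at -1.01. Mdm2 (0.19), Phlda3 (-0.32) and Bax (-0.20) did not pass. Without treated tumour 1, 3 rose and 3 fell, and without treated tumour 2, 4 and 3.

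Apoptosis regulators rose more often than they fell. Of 30 genes 12 rose and 4 fell, and 7 rose without treated tumour 2. The survival gene Mcl1 stood at 118, 106, 91.7 and 85.5 in the controls and 184 and 259.9 in the treated tumours (1.13), both treated tumours lying above the controls. Bcl2l11, the death activator BIM that ERK marks for removal, rose from 28.1 to 42.2 (0.61), a call lost without treated tumour 1 (adjusted p = 0.052) or 2 (0.051). Bok, a relative of BAX, fell from 50.8 to 14.1 (-1.74). Bcl2a1b (2.31), a survival gene of leukocytes, and Birc3 (1.66), an NF-kB target, rose, and Birc5, survivin (-1.84), a gene of dividing cells, fell. Bnip3l (-0.02), Bbc3 (0.11) and Xiap (0.02) did not pass. Leukocyte markers rose beside the genes that rose here, and their part was not tested.

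Hypoxia genes showed few calls, and glycolysis genes about as many as all genes. Of 24 hypoxia genes 4 rose (16.7%) and 2 fell (8.33%), and of 21 glycolysis genes 4 rose (19%) and 6 fell (28.6%). The hypoxia genes that fell numbered 6 without control day 6 tumour 1, and 1 without treated tumour 1, treated tumour 2 or control day 6 tumour 2, and those that rose numbered 2 without treated tumour 2. The spread among controls was wide. The hypoxia list's mean was 0.67 in control day 3 tumour 2 and -0.56 in control day 6 tumour 1, against -0.27 and 0.17 in the treated tumours, which lay between them. Ldha (lactate dehydrogenase A) stood at 999, 1762, 697 and 1529 in the controls and 539 and 653 in the treated tumours (-0.98), a call lost without treated tumour 1 (adjusted p = 0.11) or 2 (0.055). Gapdh (-0.54) and Vegfa (-0.36) did not pass. Slc16a1, a lactate carrier, fell from 16.4 to 7.11 (-1.10), and Pfkfb3, which speeds glycolysis, rose from 6.76 to 46.02 (2.62). Pfkfb4, a relative of Pfkfb3, rose by 1.59, and the sensor gene Egln3 (-1.60, a call lost without treated tumour 2, adjusted p = 0.08) and the hormone gene Stc1 (-1.23, a call lost without control day 6 tumour 2 or treated tumour 1, adjusted p = 0.066 and 0.18) fell. Slc2a3, a glucose carrier of leukocytes and neurons, rose by 1.80, as did Pfkp (1.21, a call lost without treated tumour 2, adjusted p = 0.12), while Pgam1 (-1.003, a call lost without treated tumour 1, adjusted p = 0.062) fell and Aldoa (0.04) and Bnip3 (-0.53) did not pass. The number of glycolysis genes that fell was 1 without treated tumour 1 and 3 without treated tumour 2, and 1 rose without treated tumour 2. Of 17 circadian clock genes 2 rose and 0 fell, among them Rora (0.86), a nuclear receptor gene whose call was lost without treated tumour 2 (adjusted p = 0.071). The number of clock genes that rose was 0 without treated tumour 2, and 4 fell without control day 6 tumour 1 and 2 without control day 3 tumour 1. Bhlhe40 (0.21) and Tef (-0.18) did not pass.

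Redox and metal genes changed in both directions. Of 31 genes of the NRF2 and glutathione system 10 rose (32.3%) and 7 fell (22.6%). The number that rose was 5 without treated tumour 2, and the number that fell was 4 without treated tumour 1, 4 without control day 3 tumour 2 and 4 without control day 6 tumour 2. Hmox1 (heme oxygenase), which frees iron from heme, stood at 40.4, 43.4, 30.4 and 25.8 in the controls and 133 and 489 in the treated tumours, a log2 change of 2.86 (SE 0.43, adjusted p = 0.00058). The microsomal transferase gene Mgst1 rose from 9.48 to 83.99 (3.19) and Mgst3 fell from 108 to 26.3 (-1.89). The extracellular enzymes Gpx3 (2.45, a call lost without treated tumour 2, adjusted p = 0.085) and Sod3 (1.98) rose. Prdx1 (0.14), Sod1 (-0.04), the NRF2 target Nqo1 (-0.42) and Nfe2l2 itself (0.09) did not pass. Iron genes differed in direction. The ferritin light chain gene Ftl1 stood at 2059, 1820, 2119 and 2069 in the controls and 4597 and 6091 in the treated tumours (1.39). Tfrc, the transferrin receptor that imports iron, stood at 20.1, 37.4, 17.97 and 28.9 in the controls and 6.52 and 10.3 in the treated tumours (-1.50). Treated tumours lay above all controls for Ftl1 and below them for Tfrc. Both also differed from day 6 of the drug (1.29 and -1.42), for Tfrc no longer without treated tumour 1 (adjusted p = 0.073) or PLX4032 day 6 tumour 2 (0.072).

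Receptor tyrosine kinase genes were called about as often as all genes. Of 38 tested 10 rose (26.3%) and 8 fell (21.1%), and 4 and 4 without treated tumour 2. Met, the hepatocyte growth factor receptor, stood at 18.2, 17.2, 24.1 and 25.5 in the controls and 11.3 and 8.61 in the treated tumours (-1.02), below all controls in both treated tumours. Igf1r, the receptor of insulin-like growth factor 1, fell from 20.2 to 12.6 (-0.64). Csf1r, a macrophage marker, rose from 53.3 to 331 (2.85) and Tek, an endothelial one, from 1.27 to 4.8 (1.36). Axl, a receptor linked to drug tolerance, stood at 413, 428, 341 and 396 in the controls and 319.5 and 290.2 in the treated tumours (-0.37), and the call was lost without treated tumour 2 (adjusted p = 0.096). Further rises were those of Kit (1.74, a call lost without treated tumour 2, adjusted p = 0.067), the receptor of mast cells and melanocytes, and Tie1 (1.04, a call lost without treated tumour 2, adjusted p = 0.13), of endothelium. Fgfr1 (-0.26) and Pdgfrb (-0.34) did not pass.

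The Wnt and TGF-beta lists held calls at shares near those of all genes. Wnt7b, a ligand, stood at 15.1, 27.7, 14.4 and 13.3 in the controls and 2.16 and 2.15 in the treated tumours, a log2 change of -2.50 (SE 0.37, adjusted p = 0.00051). Dkk2, a secreted Wnt modulator, stood at 149.8, 255, 206 and 217 in the controls and 86.7 and 65.7 in the treated tumours (-1.42). Neither overlapped with the controls. The Wnt list had 7 of 31 genes lower (22.6%) and 6 higher (19.4%), and 3 and 3 without treated tumour 2. Secreted inhibitors changed in both directions, Sfrp4 (2.13, a call lost without treated tumour 2, adjusted p = 0.093), Sfrp2 (1.89, a call lost without treated tumour 2, adjusted p = 0.065) and Notum (-1.65, a call lost without control day 3 tumour 2, control day 6 tumour 2, treated tumour 1 or treated tumour 2, adjusted p = 0.087 to 0.22). Fzd2 (-0.17) and Wnt10b (0.45) did not pass. Axin2, the usual readout of beta-catenin, was not called (0.03). In the TGF-beta and BMP list 8 of 34 fell and 8 rose (23.5% each), and 5 and 5 without treated tumour 2. Bmp2, a ligand, fell from 95.01 to 22.1 (-1.90) and Id1, its common target, from 31.5 to 10.3 (-1.52), whereas Id2 rose by 1.34 and Tgfb1 from 27.2 to 68.9 (1.32). Grem1 (-0.60) and Bmp1 (0.23) did not pass. Tead4, a partner of YAP, fell from 19.4 to 4.98 (-1.75), Wwtr1, the coactivator TAZ, from 97.1 to 43.3 (-1.13) and Tead1 from 45.6 to 24.8 (-0.87), as did Ptpn14 (-0.99), while the kinase gene Nuak2 rose (2.49). Tead2 (-0.34) and the targets Cyr61 (0.46) and Ctgf (1.15) did not pass. In the YAP and TAZ list 31.8% fell and 22.7% rose, against 20.8% and 24.9% of all genes. Of 22 genes of that list 7 fell and 5 rose, 2 without treated tumour 2 and 3 without control day 3 tumour 2.

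Transcripts of cytokine signalling genes rose, those of transcription factors and inhibitors among them. Of 24 JAK-STAT genes 17 rose and 1 fell. Stat2, a transcription factor of the interferon response, stood at 68.2, 33.2, 52.2 and 32.00 in the controls and 197 and 179 in the treated tumours (2.06). The inhibitor gene Socs1 stood at 25.1, 25.2, 19.1 and 30.5 in the controls and 69.3 and 64.8 in the treated tumours (1.41). Neither gene overlapped between the groups. Stat4 (2.37) and Cish (1.48) rose, Socs3 (0.53) and the receptor gene Il6st (0.12) did not pass, and 11 of the list rose without treated tumour 2. Of 16 NF-kB targets that feed back on the pathway 14 rose and 0 fell, with Tnfaip3, the deubiquitinase A20, rising from 7.92 to 31.04 (1.81) and Nfkbia, the inhibitor IkB-alpha, from 96.2 to 204 (1.07). Tnip3 (2.86) and Traf1 (1.87) rose as well, and Tnfaip2 (-0.13) and Nfkb2 (0.32) did not pass. Acute phase and plasma lipoprotein genes rose in 15 of 20 cases, with a median of 2.55. Cfb (complement factor B) stood at 60.97, 25.6, 39.1 and 20.5 in the controls and 326 and 548 in the treated tumours (3.62), the treated tumours far above the controls. Saa3, serum amyloid A3 (4.77), C3 (4.74) and C4b (3.62), complement genes, rose with it, and Apod (1.09) and Clu (-0.51) did not pass. The adhesion gene Icam1 stood at 13.3, 6.71, 10.4 and 2.7 in the controls and 61.2 and 87.9 in the treated tumours (3.17). Of 24 eicosanoid genes 12 rose and 4 fell, and 0 fell without treated tumour 1 and 1 without treated tumour 2. Pla2g2d (2.83), a phospholipase gene, Alox5ap (2.77), which starts leukotriene synthesis, and Ptgis (2.26), prostacyclin synthase, rose, and Pla2g7 (-0.08) and Lta4h (-0.01) did not pass. Ptges, a prostaglandin E synthase gene, fell from 87.9 to 31.7 (-1.28), a call lost without treated tumour 1 (adjusted p = 0.11), while Tbxas1, the thromboxane synthase, rose from 6.61 to 54.3 (3.08), and Ptgs2, the inducible cyclooxygenase, did not pass (-1.74, adjusted p = 0.066). Leukocyte markers rose with all of these genes, Ptprc standing at 29.2, 15.7, 24.8 and 6.01 in the controls and 121 and 183 in the treated tumours (3.10), and their part was not tested.

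Integrin and laminin genes changed in both directions, the rises at a share near that of all genes. Of 26 integrin and laminin genes 8 fell (30.8%) and 6 rose (23.1%). These counts were 4 and 3 without treated tumour 2 and 5 and 5 without treated tumour 1. Itga3, a laminin receptor subunit, stood at 29.7, 27.3, 29.6 and 21.4 in the controls and 8.01 and 5.79 in the treated tumours (-1.83), and Itga6, another, fell from 67.1 to 26.6 (-1.25). Itgb7 (1.68) and Itga4 (1.74), subunits used by leukocytes, rose. Itga10 (-1.77, a call lost without treated tumour 2, adjusted p = 0.069) and Lama5 (-1.76, a call lost without control day 3 tumour 2, control day 6 tumour 2, treated tumour 1 or treated tumour 2, adjusted p = 0.057 to 0.12) fell, and Itga5 (-0.15) and Itgb5 (0.49) did not pass. Of 21 collagen genes 7 rose and 3 fell, and 1 rose without treated tumour 2, 4 without treated tumour 1 and 4 without control day 6 tumour 2. The fibrillar collagen partners Col14a1 (2.43, a call lost without treated tumour 2, adjusted p = 0.094) and Col12a1 (1.28, a call lost without treated tumour 1, adjusted p = 0.092) rose and Col7a1, of anchoring fibrils, fell (-1.26), while Col6a1 (0.02) and Col16a1 (-0.12) did not pass. Col18a1, a basement membrane collagen, fell from 482 to 203 (-1.22). Among collagen genes 33.3% rose and 14.3% fell, against 24.9% and 20.8% of all genes. Of 34 matrix protease and inhibitor genes 12 rose and 4 fell, with Adamts15 (2.67), Mmp25 (2.36) and Mmp23 (2.03) among the rises and Mmp10 (-2.03, a call lost without control day 3 tumour 2, control day 6 tumour 2 or treated tumour 1, adjusted p = 0.091 to 0.26) among the falls. The number that fell was 0 without treated tumour 1 and 1 without control day 3 tumour 2. Timp1, a protease inhibitor, fell from 439 to 154 (-1.44), whose call was lost without treated tumour 1 (adjusted p = 0.054). Mmp14 (0.07) and Timp2 (0.12) did not pass. Among state genes of dedifferentiated melanoma 13 of 29 fell, but 2 without treated tumour 2. The calcium-binding protein gene S100a4 (-1.53, a call lost without treated tumour 2, adjusted p = 0.062), Sox9 (-1.15, a call lost without treated tumour 2, adjusted p = 0.12), a neural crest factor, and Cdh2 (-0.96, a call lost without treated tumour 2, adjusted p = 0.076), N-cadherin, were among these, and Fn1 (-0.09) and Tnc (0.38) did not pass. Vim (vimentin) stood at 5500, 6795, 4866 and 6069 in the controls and 4111 and 3725 in the treated tumours (-0.56), with its call lost without treated tumour 1 (adjusted p = 0.079) or 2 (0.18), control day 3 tumour 2 (0.087) or control day 6 tumour 2 (0.085). Mitf, the melanocyte factor, stood at 2.76, 4.73, 2.96 and 3.8 in the controls and 6.55 and 10.4 in the treated tumours (1.04), a rise lost without treated tumour 2 (adjusted p = 0.12). Most fibroblast and endothelial markers rose beside these genes, and their part was not tested.

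Among chromatin genes most of the high mobility group family fell. Of 11 members 2 rose and 9 fell, all of the latter also to levels lower than at day 6 of the drug. Without treated tumour 2, 0 rose. Hmgb3 stood at 83.7, 65.2, 67.6 and 81.8 in the controls and 18.3 and 17.2 in the treated tumours (-1.999), and Hmgb1 fell from 524 to 283 (-0.89), as did Hmgn5 (-1.52). In the polycomb and DNA methylation list 9 of 26 fell (34.6%) and 6 rose (23.1%), against 20.8% and 24.9% of all genes. Ezh2, the methyltransferase of dividing cells, fell from 67.5 to 37.5 (-0.83), the maintenance methyltransferase gene Dnmt1 from 86.4 to 44.3 (-0.95), as did Uhrf1, which recruits it (-1.69), and Phf19 (-1.07), while Cbx7, a reader subunit, rose from 5.71 to 14.3 (1.24). Eed (-0.08) and Uhrf2 (-0.12) did not pass. Nuclear receptor genes rose in 10 of 27 cases, with Esrra, a regulator of mitochondrial genes, rising from 21.1 to 43.3 (1.0003) and Rara, a retinoic acid receptor gene, from 27.3 to 42.3 (0.61). Pparg, the receptor of fat cells and some macrophages, rose by 1.79 and Vdr, the vitamin D receptor, by 1.16, and Rarg (-0.26) and Thra (0.41) did not pass. Among genes named as zinc finger proteins (Zfp) 56 of 337 rose (16.6%) and 33 fell (9.79%), below the shares of all genes. Without treated tumour 2 the counts were 25 and 9, without treated tumour 1 37 and 28, and without control day 6 tumour 2 47 and 20. Zfp36, which destabilises cytokine messages (2.01), Zfp691 (1.51), Zfp385a (1.25) and Zfp710 (1.15) were among the rises, and Zfp740 (-0.14) and Zfp414 (-0.05) did not pass.

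Across the larger families transporters and receptors rose more often than all genes. Of 221 solute carrier genes 85 rose (38.5%) and 31 fell (14%), and without treated tumour 2 the counts were 53 and 20. Slc11a1, a metal pump of phagocytes, rose from 14.8 to 213 (4.07), as did the nucleoside carrier gene Slc28a2 (3.83), Slc13a3 (3.75), a carrier of dicarboxylates, and Slc2a6 (3.32). The mitochondrial carriers Slc25a3 (-0.19) and Slc25a5 (-0.23) did not pass, and the zinc exporter gene Slc30a4 fell from 57.2 to 18.3 (-1.57). Of 53 receptors named Gpr or Adgr 31 rose, with Gpr132 (3.17), Gpr18 (2.95) and Gpr65 (2.79), receptors known from leukocytes, among the highest, beside the macrophage marker Adgre1 (3.90). Gpr153 (-0.04) and Adgrl2 (-0.35) did not pass. Of 14 cathepsin genes 13 rose, those of leukocytes most, Ctsw (3.17), Ctss (3.07) and Ctsc (2.77). Of 47 coatomer, Sec and TRAPP genes, which serve protein traffic, 4 rose and 4 fell (8.51% each), below the shares of all genes. Without treated tumour 2 these counts were 1 and 2, and without control day 3 tumour 2 or control day 6 tumour 2 they were 2 and 1, while 1 fell without treated tumour 1. Trappc2l (0.62), Copz2 (0.49, a call lost without treated tumour 2, adjusted p = 0.071), Trappc13 (-0.42, a call lost without treated tumour 1, adjusted p = 0.09) and Sec23a (-0.36, a call lost without control day 3 tumour 2, control day 6 tumour 2 or treated tumour 2, adjusted p = 0.055 to 0.14) were called, and Sec61b (-0.16) and Cope (0.11) did not pass.

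Among genes with a mean of at least 20 on the higher side and outside the proliferation list, Nptx1, a secreted pentraxin of synapses, fell most in log2 change. It stood at 73.05, 135, 41.1 and 156 in the controls and 4.37 and 2.89 in the treated tumours, a log2 change of -4.31 (SE 0.53, adjusted p = 0.00022). Glp1r, the receptor of an incretin hormone, stood at 13.1, 72.1, 4.87 and 41.7 in the controls and 0.705 and 0.976 in the treated tumours (-3.62). Ngef, a guanine nucleotide exchange factor gene of neurons, stood at 24.6, 60.2, 12.97 and 46.5 in the controls and 3.66 and 3.07 in the treated tumours (-2.87). All treated values lay below all controls. Ano1, a calcium-activated chloride channel gene, fell from 40.97 to 4.1 (-2.84), Prkg2, a cyclic GMP-dependent kinase gene, from 25.5 to 3.04 (-2.70) and Tenm4, a teneurin, from 41.9 to 6.67 (-2.47). Dnph1, a nucleotide hydrolase that MYC is known to induce, fell from 28.3 to 4.51 (-2.40). Pbk (-2.52), Anln (-2.49) and E2f8 (-2.39), genes of dividing cells, were also among the 15 largest, beside Hmga1, Hmga2, Etv4 and Il11 named above. The 15 largest rises outside the immune marker lists were led by Retnla from 0.499 to 56.9 (5.31), Marco (5.28), a scavenger receptor gene, Ly6i (5.24), Lyz1 (5.05) and Saa3. The others were C3, Ly6c2 (4.68), Clec12a (4.64), Clec3b (4.48), Slamf8 (4.27), Plac8 (4.22), Cd209f (4.16), Pltp, Slc11a1 and Gbp2b (4.07). The marker lists left out are short, so other genes of immune cells can remain among these rises. Macrophage markers lay 2.56 and 3.03 log2 units over the control mean in the treated tumours, and their part was not tested.

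In amount of signal other genes led. The largest losses included Mgp (-1.31, a call lost without any 1 of the 6 tumours, adjusted p = 0.062 to 0.17), matrix Gla protein, S100a4 (-1.53, a call lost without treated tumour 2, adjusted p = 0.062) and S100a6 (-0.67, a call lost without treated tumour 2, adjusted p = 0.23), calcium-binding proteins, mt-COX2 (-0.89, a call lost without treated tumour 1, adjusted p = 0.15) and mt-ATP6 (-0.65, a call lost without control day 3 tumour 1, control day 3 tumour 2, control day 6 tumour 1, treated tumour 1 or treated tumour 2, adjusted p = 0.067 to 0.15), encoded by the mitochondrial genome, Hmga1 and Vim. Lgals1 (galectin-1) stood at 5391, 6708, 5771 and 6407 in the controls and 3272 and 2492 in the treated tumours (-1.08). Spp1 (osteopontin) stood at 2217, 5081, 1198 and 3592 in the controls and 628 and 760.4 in the treated tumours (-1.93). Crabp1, a retinoic acid binding protein, stood at 5129, 5775, 3984 and 6718 in the controls and 3385 and 1235 in the treated tumours (-1.38). Lgals1 and Spp1 kept their calls without any 1 tumour, and Crabp1 lost its call without treated tumour 2 (adjusted p = 0.19). The largest gain was that of Apoe, which carries lipids out of cells and stood at 2079, 678, 7097 and 1063 in the controls and 13138 and 12611 in the treated tumours (2.83), a call lost without treated tumour 2 (adjusted p = 0.053). Tmsb4x, an actin-binding peptide, stood at 2325, 1721, 2130 and 1818 in the controls and 4510 and 7678 in the treated tumours (1.57). Lyz2 (lysozyme), a macrophage marker, stood at 872, 396, 763 and 351 in the controls and 3881 and 7768 in the treated tumours (3.31). B2m (1.68), Cd74 (3.14), H2-K1 (2.45) and H2-Aa (3.31), genes of antigen presentation, Ftl1, Psap and Fth1 (1.04, a call lost without treated tumour 2, adjusted p = 0.16), the ferritin heavy chain, were the other gains.

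**Figure D5:**
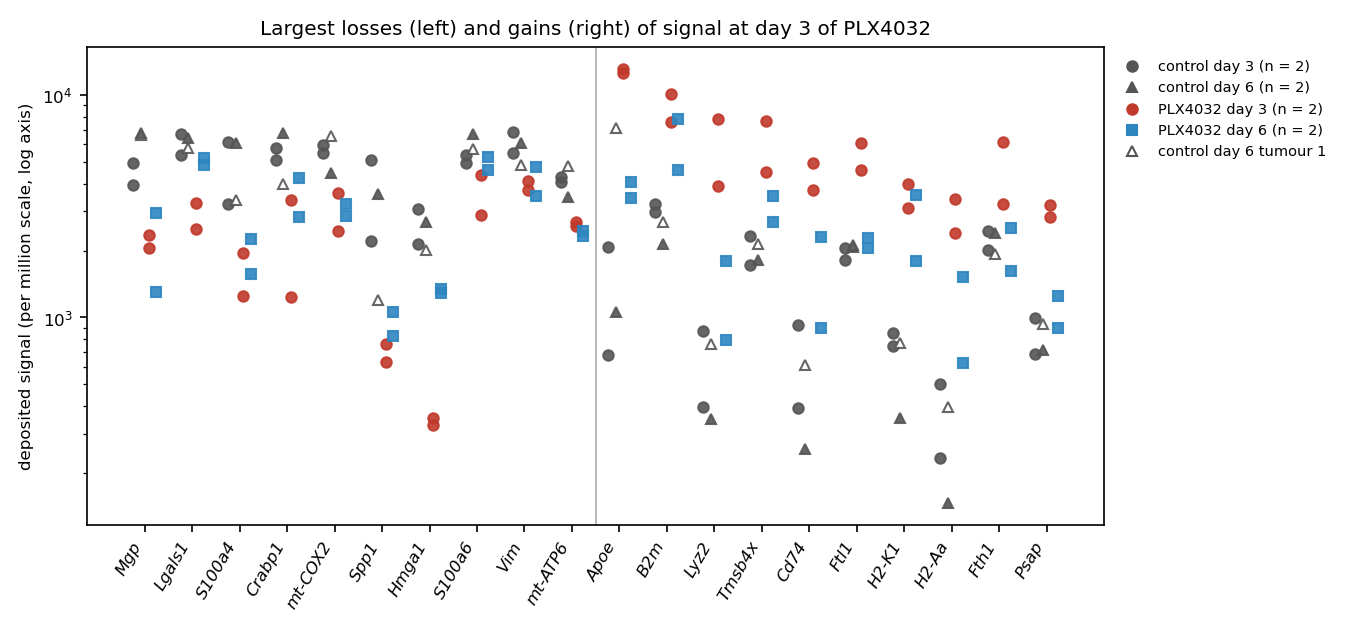
Deposited signal (log axis) of the 10 genes with the largest loss and the 10 with the largest gain of signal at day 3 of PLX4032, for each tumour of 4 groups. Points are single tumours; Hmga1 and Spp1 lie below all controls, and Lyz2, Cd74 and H2-Aa above them.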

How the data were processed

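Bulk RNA-seq values were taken from 1 table of 14 tumours (6 groups), of which the 6 tumours of control day 3, control day 6 and PLX4032 day 3 were compared here. The signal values deposited by the authors are named TPM in the table, but the columns sum to between 879385 and 1084401 rather than to 1 fixed total. No source used here says how they were rescaled. Kallisto, sleuth and the mm10 build are named without versions, per the submitters' processing notes. Sequencing depth is unknown, so counting intervals are not given. Column names tied columns to groups but not to single animals, so tumour numbers here are names only. Of 18481 genes listed 17811 (96.4%) matched the RefSeq gene table by symbol, and 54 rows repeat the values of another row.

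From the deposited signal, log2(signal + 1) was computed for genes at 1 or more in at least 2 of the 14 columns (15841 genes). Limma 3.58.1 in R 4.3.3 was fitted with 6 group means, a variance trend and no covariates. The spread was shared over all 14 tumours with 8 residual degrees of freedom, and it includes 4 tumours of day 27 that came from 2 mice. The contrast was PLX4032 day 3 minus the mean of both control groups, with a second contrast against PLX4032 day 6. P-values were adjusted by Benjamini-Hochberg over all genes tested, 2-sided, and a gene was called at an adjusted p under 0.05. The fit was tested on simulated data. Promoter windows came from RefSeq on GRCm38.p6.

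Members and lists were chosen with earlier results of these data known. The text names up to 4 called members a list, those with the largest change, no overlap between sides and a mean of at least 5 on the higher side. It also names up to 2 members not called with the highest means. The 15 largest rises and falls outside immune and proliferation lists (mean of at least 20), the 10 largest gains and losses of signal, and a set of check genes were added, as were members named for their role in a pathway. Values of a few genes picked in this way were left out. Alternatives were other pseudocounts, filters, scalings between columns, variance models, sets of samples in the fit and controls, and leaving out each tumour in turn. Tumours of a group are separate samples per the labels, but whether they came from separate mice is not stated for all, so p-values measure the spread between these samples.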

Additional observations from a re-analysis of the deposited data

Results flagged for a closer look

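Among 126 list means and single genes checked over the 4 controls, 3 had 1 control far from the others, where chance gives about 1 in 20. For CDK inhibitors and G1 cyclins, control day 6 tumour 1 lay at -0.14 (mean log2 signal relative to the control mean), and the other controls lay at 0.06, 0.05 and 0.03. Its gap to the nearest control was 0.85 of the whole range, over Dixon's 95% critical value for 4 samples. For the NF-kB feedback genes, control day 6 tumour 2 lay at -0.17 against 0.05, 0.05 and 0.07, a gap of 0.917 of the range. For Wnt7b, control day 3 tumour 2 stood at a signal of 27.7 against 13.3 to 15.1 in the other controls, a gap of 0.872 of the range.

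Treated tumours also differed between the days: 2892 genes differed between PLX4032 day 3 and day 6 by limma at an adjusted p under 0.05. That contrast holds no controls, so a difference between the days in control tumours was not taken off.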

How the results depend on the processing

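The number of genes called against the controls was 7249, and it lay between 5530 and 8075 under the 14 alternatives that kept all 6 tumours or took 1 control day alone, and between 4345 and 7365 with 1 tumour left out. Of the called genes 3622 were called in the same direction under all 20 alternatives, and 0 were called in the opposite direction. Of the 469 genes named 333 were called and 261 of these kept their call under every alternative. Most losses came without treated tumour 2 (50) or 1 (32), in a fit of the compared groups only (37) and against the day 6 controls alone (36). Under quantile normalisation Rpl13a, not called otherwise at -0.06, was called at 0.24 (adjusted p = 0.048).

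The comparison of day 3 with day 6 of the drug was less stable. Its 2892 calls became 1003 in a fit of those 4 tumours only (31.0% higher at day 3 against 40.2%), and 1074 to 2074 with 1 tumour left out. The share of higher calls was 19.3% without treated tumour 2 and 29.5% without PLX4032 day 6 tumour 1. In the fit of 4 tumours 18 ribosome biogenesis, 7 tRNA synthetase, 9 lysosomal and 4 FOXO target genes differed from day 6 in the direction given. Sets that leave 1 tumour in a group assume that it varies like the others.

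No paired analysis was possible because the columns carry no animal numbers and the groups compared share at most 1 animal tag in the labels. Depth is unknown, and an exact permutation test of 2 against 4 tumours cannot go under p = 0.067.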
